A study of Mus musculus with 35 samples.

Results

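The open regions described here carried the histone mark H3K4me3 and no H3K27me3 in mouse embryonic fibroblasts (MEFs) at day 4 of chemical reprogramming. A member was any row of the merged ATAC-seq table on chromosomes 1 to 19 that overlapped, by at least 1 bp, a row of the H3K4me3 table and no row of the H3K27me3 table. The rule found 9581 members, which are 26.7% of the 35931 open regions on those chromosomes and part of a table of 36431 open regions. Of the other open regions on the same chromosomes, 22978 overlapped neither mark (called unmarked below), 1510 overlapped both and 1862 overlapped H3K27me3 alone. The rule used position only and set no limit on the ATAC-seq level or its change with treatment. However, each of the 36431 open regions starts and ends at a listed peak of the 14 ATAC-seq libraries described below. A region could therefore be present through a peak in only some of them. The rule selected for H3K4me3 signal, and a longer region has more room to overlap a row.

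The MEFs were wild-type primary fibroblasts, taken per the study's methods from embryos of ICR mice, and all samples were collected on day 4. ATAC-seq covered 7 treatments with 2 libraries each, which the methods call biological for Control and C6FAE. Nothing says whether the libraries of the other treatments came from separate cultures, so p-values measure only the spread between these libraries, which may be technical. The treatments were Control, Basal, AE, C6AE, 6FAE, CFAE and C6FAE. C6FAE is the full cocktail, called CaMP by the study, of CHIR99021 (C, which blocks the kinase GSK3), an inhibitor of the TGF-beta type I receptor (6), Forskolin (F, which activates adenylyl cyclase), AM580 (A, an agonist of a retinoic acid receptor) and EPZ004777 (E, an inhibitor of the H3K79 methyltransferase DOT1L). By their letters, 6FAE lacks C, CFAE lacks 6, C6AE lacks F and AE holds A and E alone; neither the labels nor the methods say what the Basal medium held. ChIP-seq of each mark had 1 library per treatment. The H3K4me3 and H3K27me3 libraries titled as control carry C6FAE as their treatment label, so they are given as libraries of unknown condition.

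Trimethylation of lysine 4 of histone H3 is laid down by the COMPASS-type complexes and marks the nucleosomes that flank the start sites of active and poised genes. ATAC-seq reads where the Tn5 transposase can cut, which is highest in the nucleosome-free stretch of a promoter. H3K27me3, deposited by Polycomb repressive complex 2, marks silent developmental genes, and promoters that hold both marks are called bivalent. Open chromatin with H3K4me3 and without H3K27me3 is the usual state of promoters of genes in use, while open chromatin with neither mark holds most distal enhancers. No annotation of the files' genome build (mm9) was used, so the members are named by position and whether each one holds a start site was not tested.

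The members were long, and how far the overlap rule itself favours long regions was not tested. Their median length was 2952 bp (quartiles 2038 and 4137 bp, longest 62620 bp), against 1094 bp for the unmarked regions. They made up 4.14% of the open regions under 1000 bp, 17.2% of those from 1000 to below 2000 bp, 48.4% of those from 2000 to below 4000 bp and 66.7% of those of 4000 bp and over. The 4 classes held 489, 1821, 4671 and 2600 members. The H3K4me3 table covered the whole length of 51.0% of members, and 582 members were covered over less than 50% of their length. All but 50 members met a single H3K4me3 row, and 498 members shared a row with another member, so their H3K4me3 values are not separate measurements. The share of open regions that were members ran from 22.0% on chromosome 18 to 31.1% on chromosome 11.

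The 18 members covered by H3K4me3 rows over less than 10% of their length had a median ATAC-seq level of 11.6 RPKM in Control, and the 178 unmarked regions that lay within 1000 bp of an H3K4me3 row without touching it had 10.5 RPKM. In C6FAE the medians were 18.5 and 14.1 RPKM. RPKM is the read count scaled by region length in kilobases and by the library's mapped reads, averaged by the authors over bins of the region. A further 316 members had an H3K27me3 row within 1000 bp but not on them.

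The peak lists come from the same ChIP-seq libraries as the tables that defined the members. Their H3K4me3 peaks at members therefore follow largely from the rule and are no separate support. A peak at a listed -log10 q of 1.3 or more lay in 98.2% to 99.8% of members in each of the 6 libraries of known treatment, and in 4.18% to 12.3% of unmarked regions. For H3K27me3 such peaks lay in at most 0.355% of members (34, in C6AE). The H3K27me3 libraries held few strong peaks in 3 treatments: 74 in 6FAE, 82 in C6FAE and 136 in CFAE, against 4115 to 17766 in AE, Basal and C6AE. For the cocktails with Forskolin, the absence of H3K27me3 from the members therefore rests on sparse lists.

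Members had a higher median ATAC-seq RPKM than each other class of open regions in every column. In Control, their median was 17.2 RPKM (quartiles 13.6 and 21.7), against 9.41 RPKM in unmarked regions. Their medians were 18.3 in Basal, 21.9 in AE, 16.0 in C6AE, 18.3 in 6FAE, 23.6 in CFAE and 23.4 RPKM in C6FAE. The medians of the unmarked regions were 12.8, 13.8, 10.5, 12.7, 16.2 and 14.9 RPKM in the same order. Regions with both marks came nearest, with medians of 12.1 RPKM in Control and 21.3 in C6FAE. Their means were above those of members in every column, with 19.4 against 18.2 RPKM in Control and 28.8 against 24.7 in C6FAE. C6AE was the lowest column for the members and CFAE and C6FAE the highest. C6AE includes the shallowest ATAC-seq library, with 3346418 tags, and the part of depth in these levels was not tested. The columns merge 2 libraries each, so these medians carry no replicate error, and all members were above 0 in all columns.

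**Figure D1:**
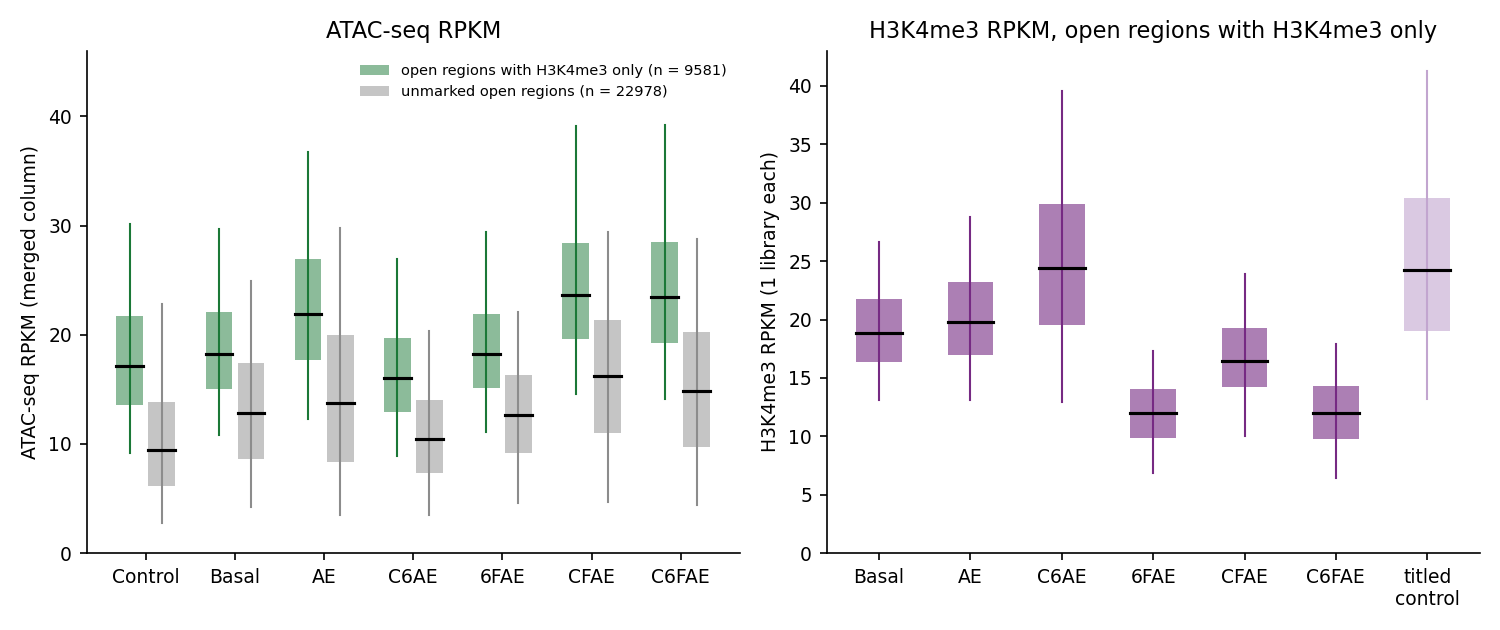
ATAC-seq RPKM (left, merged column of each treatment) for the open regions with H3K4me3 only and the unmarked open regions, and H3K4me3 RPKM (right, 1 library per column) for the former; black lines are medians, boxes quartiles and thin lines the 5th to 95th percentile over regions, not over replicates. The Control median is 17.2 RPKM in regions with H3K4me3 only and 9.41 RPKM in unmarked regions, and the H3K4me3 medians of 6FAE and C6FAE are the lowest.

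The single libraries allowed a test of this difference. In each library the 20000 peaks with the highest -log10 p were taken as its strongest. The share of members that held one was 62.0% and 55.0% in the Control libraries, 65.0% and 72.3% in Basal, 69.7% and 64.9% in AE, and 63.2% and 46.2% in C6AE. It was 49.0% and 77.7% in 6FAE, 73.3% and 79.0% in CFAE, and 83.2% and 69.4% in C6FAE. Replicates lay far apart in 6FAE and C6AE, and the libraries of different treatments overlapped.

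Over the 14 libraries, the share in members exceeded that in unmarked regions by 43.3 percentage points on average (SD 4.07, n = 14 libraries), in 14 of 14 libraries (two-sided exact sign-flip permutation test, p = 1.2e-04, the smallest this design can give; 1.2e-04 after Benjamini-Hochberg adjustment over 3 classes). The excess over regions with both marks was 24.1 points (SD 3.79) and over regions with H3K27me3 alone 49.6 points (SD 7.12), each in 14 of 14 libraries with the same p. Long regions have more room for a peak, so the test was repeated within length classes, a choice made after the data were seen. The excess over unmarked regions was 8.57 points (SD 3.98) under 1000 bp, 20.8 (SD 4.94) from 1000 to below 2000 bp, 28.1 (SD 5.70) from 2000 to below 4000 bp and 21.0 (SD 8.25) at 4000 bp and over. Each class again reached the smallest exact p of 1.2e-04 (adjusted over the 4 classes, 1.2e-04). All open regions are bounded by listed peaks of these same 14 libraries, so the libraries are not independent of the choice of regions.

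Between treatments, a difference in the same share beyond the spread of replicates was not detectable with 2 libraries each. The mean was 58.5% in Control (SD 4.98, n = 2), 76.3% in C6FAE (SD 9.72, n = 2), 76.2% in CFAE (SD 4.07, n = 2) and 63.4% in 6FAE (SD 20.3, n = 2). An exact permutation test over all 135135 ways to pair the 14 libraries gave p = 0.362. With 5 such measures tested (adjusted p = 0.412 for each), the median listed-peak coverage of members gave the smallest exact p, 0.164. The number of tags per ATAC-seq library ran from 3346418 to 8764791, and it was 4960248 and 8764791 in the 6FAE pair. The deeper library of that pair had the higher share, and the part of depth in the result was not tested.

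**Figure D2:**
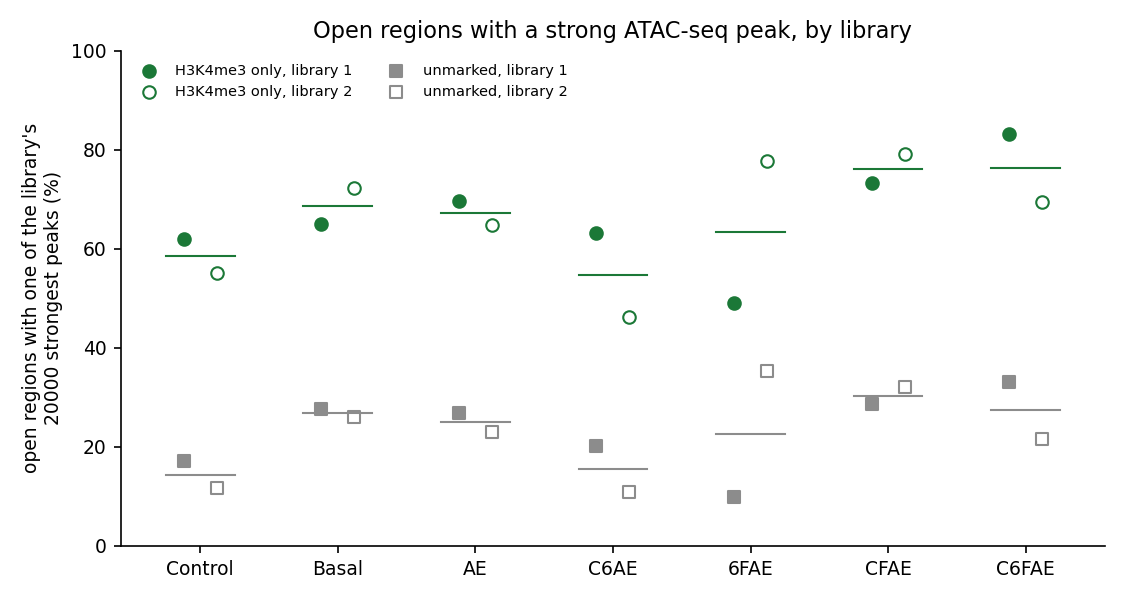
Percentage of open regions that hold one of the 20000 strongest ATAC-seq peaks of a library, for each of the 14 libraries (filled, library 1; open, library 2; lines, means of 2) by treatment. Regions with H3K4me3 only lie between 46.2% and 83.2% and stand above unmarked regions in each library, and the 6FAE pair is the widest apart.

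Members also held their accessibility more evenly across treatments than unmarked regions, and regions with both marks lay between the 2 classes. A peak was listed in all 14 libraries for 86.7% of members (8309), 67.2% of regions with both marks and 23.7% of unmarked regions. At 4000 bp and over these shares were closer, at 99.0%, 97.8% and 90.4%. The difference between the highest and the lowest of the 7 treatments, on the log2(RPKM+1) scale, had a median of 0.86 in members and 1.58 in unmarked regions, and it was below 1 (2-fold) in 67.9% and 15.6%. This range was smaller in longer members: its median in members was 1.37 under 1000 bp, 1.06 from 1000 to below 2000 bp, 0.85 from 2000 to below 4000 bp and 0.73 at 4000 bp and over. Unmarked regions of the same classes had medians of 1.90, 1.497, 1.19 and 0.92, so the members were the steadier in each class. Regions with both marks had a median of 1.07 over all lengths and 0.81 at 4000 bp and over, near that of members. These are descriptions over regions, without a test over libraries, and the part of region length and level in them was not tested beyond these classes. The open regions are bounded by listed peaks of these libraries, so a region may be present through only some of them. A peak was listed in 7 or fewer libraries for 14.3% of unmarked regions and 0.209% of members. The part of this in the contrast was not tested.

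The steadiest members with a mean at or above the class median were chr10:80694903-80697940, chr7:148413154-148417226 and chr12:85790171-85793950. The first had 19.1 RPKM in Control, 20.8 in Basal, 19.8 in AE, 21.4 in C6AE, 19.5 in 6FAE, 21.6 in CFAE and 19.2 in C6FAE, a range of 0.17 on the log2 scale. The other pair had ranges of 0.20 and 0.21. A peak was listed there in 14 of 14 libraries for all 3.

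The comparison of C6FAE with Control asks what the full cocktail did to accessibility by day 4. On the scale of the deposited columns, 775 members (8.09%) were at least 2-fold higher in C6FAE, against 25.1% of all open regions, and 23 members (0.240%) were at least 2-fold lower, against 4.42%. The median difference of log2(RPKM+1) was 0.43 in members (quartiles 0.19 and 0.68), and 87.7% of members were above 0. The column itself was shifted: its median over all open regions lay 0.57 above that of Control. With each column centred on that median, the members' median difference was -0.14, 109 members were higher and 190 lower. The higher share of the members past 2-fold thus went from 97.1% to 36.5%, and it was 49.7% after quantile normalization (87 higher, 88 lower). Whether the members gained accessibility as a class cannot be told apart from the scale of the column.

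A smaller share of members than of unmarked regions passed the 2-fold limit on each of the 4 scales tried, the fourth being centring on the 10% most open regions. In unmarked regions 31.6% were higher and 6.45% lower as deposited. After quantile normalization the shares higher and lower were 13.1% and 13.2% in unmarked regions and 0.908% and 0.918% in members. This is again a comparison over regions of merged columns, with no replicate test, and the regions are bounded by peaks of the same libraries.

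The share past 2-fold was lower in longer members. The 2-fold higher share in C6FAE was 26.4% of members under 1000 bp, 14.2% from 1000 to below 2000 bp, 6.17% from 2000 to below 4000 bp and 3.81% at 4000 bp and over. Unmarked regions had 31.4%, 33.4%, 30.2% and 24.05%. The shares were closest in the shortest class. Their 2-fold lower shares were 2.04%, 0.549% and 0.0642% in the first 3 classes, and 0 of 2600 members were lower in the longest.

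**Figure D3:**
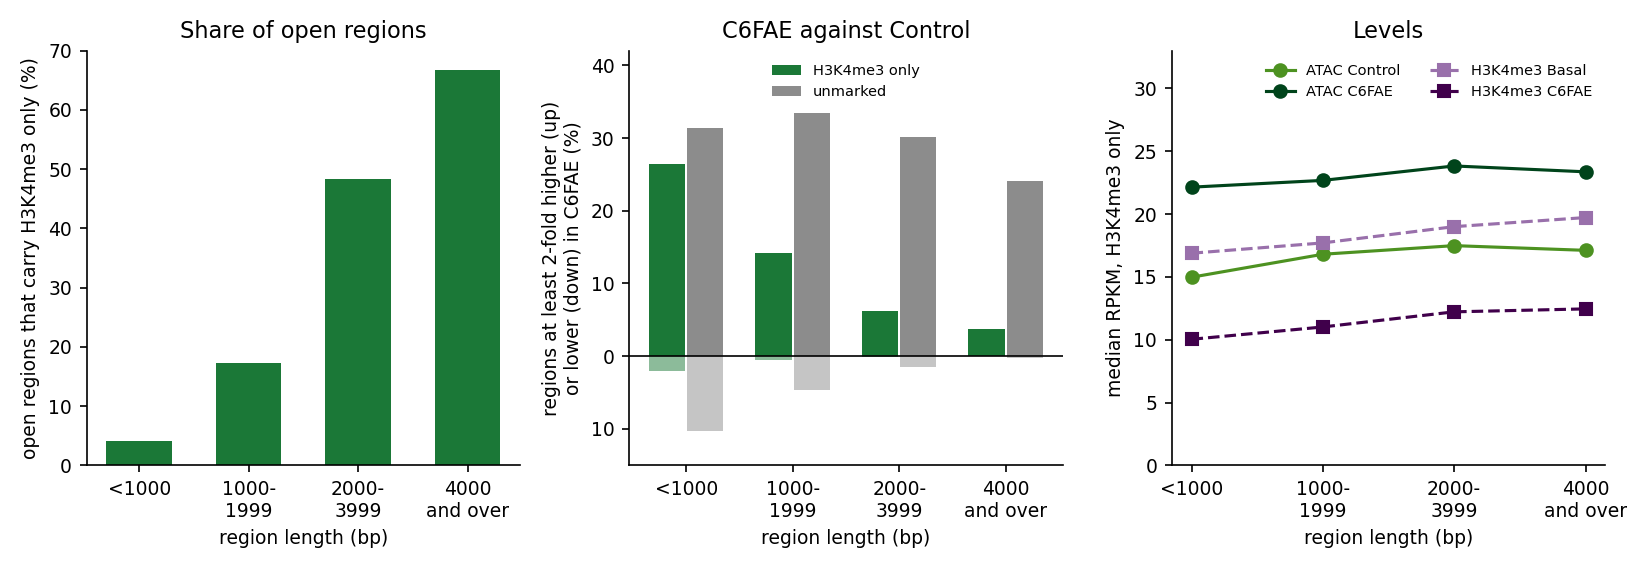
Region length and the open regions with H3K4me3 only: their share of all open regions (left), the percentage at least 2-fold higher or lower in C6FAE against Control beside unmarked regions (middle), and the median ATAC-seq and H3K4me3 RPKM (right), in 4 length classes. The share is 4.14% in the shortest class and 66.7% in the longest, the 2-fold higher percentage 26.4% and 3.81%, and the levels differ little.

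The 775 members that were higher in C6FAE were low in Control, which was also collected on day 4. Their median was 10.2 RPKM in Control, 15.9 in Basal, 18.9 in AE, 14.4 in C6AE, 16.8 in 6FAE, 22.5 in CFAE and 25.4 in C6FAE, and their median length was 1995 bp. The 8783 members that differed by less than 2-fold had 17.7 RPKM in Control and 23.3 in C6FAE and a median length of 3041 bp. The 23 lower members had 24.6 RPKM in Control and 10.4 in C6FAE, with a median length of 1004 bp. A group chosen for a high difference tends to be low in the reference, so these levels are a description of the choice. The median log2 difference of H3K4me3 between C6FAE and Basal was -0.57 in the higher, -0.64 in the lower and -0.63 in the other members. H3K4me3 was above Basal in 56 of the 775 higher members and in 0 of the 23 lower ones, against 167 of all 9581.

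The single libraries behind the merged columns mostly lay on the same side. The higher and lower members were chosen on columns merged from these libraries, so this is no separate support. Listed-peak coverage, the mean pileup of a library's listed peaks over the region scaled by its tags, was above both Control libraries in both C6FAE libraries for 83.1% of the 775 higher members and below for 16 of the 23 lower ones. Over all members, both C6FAE libraries were above both Control libraries in 39.9% (3819), against 38.3% of all open regions, and below in 5.34% (512), against 7.87%. With 2 libraries against 2, the smallest two-sided exact p of a single region is 0.33.

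limma, fitted over 36376 regions and all 14 libraries, pools the spread and can go lower. All 9581 members passed its filter. For C6FAE against Control it called 2 members higher and 1 lower at an adjusted p under 0.05, out of 0.0467% of all regions called higher and 0.011% called lower. The 2 became 0 without either C6FAE library, 30 without Control library 1 and 15 without Control library 2, and the 21 regions called in all became 7, 7, 109 and 87 when C6FAE library 1 or 2 or Control library 1 or 2 was left out. At an unadjusted p under 0.05, 746 members were higher and 23 lower, or 7.79% and 0.240% of members, against 11.9% and 1.72% of all regions.

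The member called lower was chr7:34916012-34916574, a region of 563 bp lying wholly within H3K4me3. Its ATAC-seq level was 37.8 RPKM in Control, 40.6 in Basal, 47.0 in AE, 37.9 in C6AE, 20.5 in 6FAE, 37.9 in CFAE and 6.31 in C6FAE. Coverage was 0.832 and 0.719 in the Control libraries and between 0.499 and 0.838 in the 10 libraries of the other treatments, and neither C6FAE library listed a peak there. C6FAE stood apart from all other libraries without overlap. The fitted log2 difference from Control was -3.13 (SE 0.36, limma adjusted p = 1.5e-04), which depends on the pseudocount of 0.1 because the C6FAE libraries are at 0. This was also the only member called in the comparisons of C6FAE with other cocktails, where 0.00275%, 0.00275%, 0.0055% and 0.0055% of all regions were called lower and none higher. C6FAE was lower than 6FAE (-2.58, limma adjusted p = 0.0048), CFAE (-2.79, 0.0012), C6AE (-3.01, 3.2e-04) and AE (-2.88, 6.9e-04). With a pseudocount of 0.5 the calls against 6FAE (limma adjusted p = 0.26) and CFAE (0.068) were lost. At an unadjusted p under 0.05, 473 members were higher and 12 lower against 6FAE (3.21% and 1.03% of all regions), 55 and 54 against CFAE (1.03% and 1.69%), 1112 and 15 against C6AE (8.74% and 1.16%), and 138 and 73 against AE (3.62% and 3.24%). H3K4me3 stayed at the region: 17.7 RPKM in Basal, 20.2 in AE, 27.02 in C6AE, 10.4 in 6FAE, 18.3 in CFAE and 11.1 in C6FAE, a C6FAE value within the column-wide difference given below.

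Both members called higher in C6FAE were called near the threshold. At chr2:180190476-180191876 the level was 7.40 RPKM in Control and 39.8 in C6FAE, with 16.4 to 25.8 RPKM in the other treatments (log2 coverage difference 2.54, SE 0.46, limma adjusted p = 0.040). Coverage was 0 and 0.126 in the Control libraries and 0.840 and 0.708 in the C6FAE libraries. At chr4:58955889-58956927 the level was 7.10 RPKM in Control and 21.9 in C6FAE, and neither Control library listed a peak (2.77, SE 0.52, limma adjusted p = 0.046). Both calls were lost with a pseudocount of 0.5, after quantile normalization, with a replicate block and without either C6FAE library (limma adjusted p up to 0.47 and 0.51). The region on chromosome 2 also lost its call without Control library 1 (adjusted p = 0.067).

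The largest increases of ATAC-seq RPKM among members in which both C6FAE libraries lay above both Control libraries were short regions. The largest, 860 bp on chromosome 18, had 1.02 RPKM in Control, 4.11 in Basal, 4.99 in AE, 6.55 in C6AE, 11.5 in 6FAE, 18.3 in CFAE and 16.5 in C6FAE. No peak was listed there in either Control library, and C6FAE coverage was 0.476 and 0.453. At chr7:128121210-128121777 the RPKM was 2.90 in Control and 32.8 in C6FAE, with 7.002 to 13.4 in the other treatments. At chr14:111153356-111154474 it was 3.46 in Control and 28.6 in C6FAE, with 5.27 to 13.4 elsewhere. In both, C6FAE was the highest merged column by a wide step. At the region on chromosome 7, C6FAE coverage was 0.920 and 0.512, against 0.483 in CFAE library 1. At chr18:34999851-35000707 the RPKM was 1.66 in Control and 15.8 in C6FAE, but 23.7 in AE and 32.6 in CFAE. At chr1:183951786-183952286 it was 3.62 in Control and 27.2 in C6FAE, and all other treatments were between 10.0 and 22.9 RPKM. The log2 differences of the 5 largest increases ran from 2.61 to 3.11, and none of them passed the limma test.

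Decreases were fewer. After the region on chromosome 7 came chr13:18809086-18810025, with 31.0 RPKM in Control, 12.0 in Basal, 11.5 in AE, 13.8 in C6AE, 5.43 in 6FAE, 21.2 in CFAE and 10.4 in C6FAE. Control coverage there was 0.779 and 0.705 and C6FAE coverage 0.178 and 0.277, while CFAE library 2 reached 0.737. At chr13:43573719-43574750 no peak was listed in either C6FAE library, and the level was 11.3 RPKM in Control, 24.9 in Basal and 3.56 in C6FAE. At chr11:102877603-102878604 the level was 26.0 RPKM in Control and between 8.43 and 14.03 in each of the other treatments. Coverage was 1.01 and 0.420 in the Control libraries and 0.487 in Basal library 2, so Control library 2 lay below a Basal library. At chr1:34908363-34909936 it was 20.3 RPKM in Control, 6.91 in C6AE and 8.39 in C6FAE, with 15.1 to 25.3 in the other 4.

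**Figure D4:**
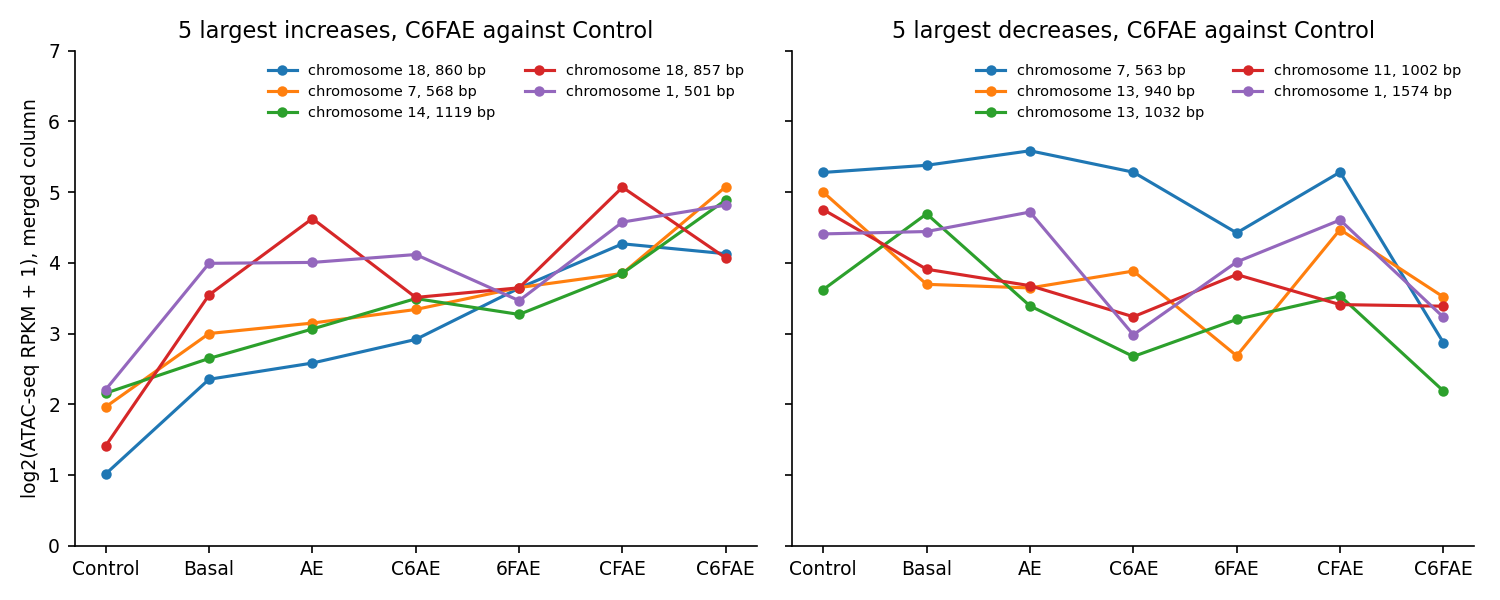
log2(ATAC-seq RPKM + 1) in the merged column of each treatment for the 5 largest increases (left) and 5 largest decreases (right) in C6FAE against Control among members whose 2 C6FAE libraries both lay beyond both Control libraries. The 563-bp region on chromosome 7 is at 37.8 RPKM in Control and 6.31 RPKM in C6FAE, below all other treatments.

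The other treatments were compared with the same Control column, so their counts are given side by side and are not independent. At least 2-fold higher were 830 members in CFAE (8.66%, against 26.7% of all open regions), 515 in AE (5.38%, against 18.6%), 207 in 6FAE (2.16%, against 15.2%), 205 in Basal (2.14%, against 14.2%) and 129 in C6AE (1.35%, against 10.9%). At least 2-fold lower were 20 in CFAE (0.209%, against 3.45%), 31 in AE (0.324%, against 4.48%), 59 in 6FAE (0.616%, against 4.30%), 56 in Basal (0.584%, against 3.63%) and 251 in C6AE (2.62%, against 7.56%). C6AE was the only treatment with more members lower than higher on the deposited scale. Median log2 differences were 0.44 in CFAE, 0.33 in AE, 0.08 in 6FAE, 0.08 in Basal and -0.09 in C6AE. The columns' own shifts against Control were 0.63 in CFAE, 0.47 in AE, 0.29 in 6FAE, 0.30 in Basal and 0.06 in C6AE. After centring, each of these treatments had more members lower than higher.

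C6FAE was next set against the treatments that lack some of its chemicals, a description added after the data were seen. The median log2 RPKM difference of members was 0.52 against C6AE, 0.35 against 6FAE, -0.01 against CFAE, 0.10 against AE and 0.35 against Basal. At least 2-fold higher and lower in C6FAE were 930 and 9 members against C6AE (18.5% and 3.66% of all regions), 231 and 19 against 6FAE (8.17% and 3.48%), 34 and 34 against CFAE (3.72% and 5.64%), 170 and 52 against AE (12.6% and 8.08%), and 395 and 19 against Basal (13.4% and 6.48%). Of members, the higher shares were 9.71%, 2.41%, 0.355%, 1.77% and 4.12% in this order. The lower shares of members were 0.0939%, 0.198%, 0.355%, 0.543% and 0.198%. All regions moved too on this scale (medians 0.49, 0.28, -0.05, 0.10 and 0.27). Centred on the median of all regions, the members' medians were 0.016 against C6AE, 0.063 against 6FAE, 0.054 against CFAE, -0.0063 against AE and 0.084 against Basal, in another order. C6FAE was the highest column for 35.0% of members and CFAE for 33.8%, and C6AE was the lowest for 41.7%. After centring, Control was the highest for 38.1%.

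limma called few members in these comparisons. In CFAE against Control it called 1 member higher (0.033% of all regions), chr8:87952971-87953635, with 4.77 RPKM in Control, 55.6 in CFAE and 14.01 to 24.5 in the other treatments. Neither Control library listed a peak there and CFAE coverage was 0.880 and 1.41 (log2 difference 3.60, SE 0.68, limma adjusted p = 0.049). The call was lost in 6 of 10 alternatives, among them after quantile normalization (limma adjusted p = 0.13) and with the replicate block (limma adjusted p = 0.057). In Basal against Control it called 1 member lower (0.0055% of all regions), chr9:99475981-99476647, with 36.6 RPKM in Control, 8.81 in Basal and 16.3 to 28.5 in the other treatments. Neither Basal library listed a peak there, and Control coverage was 0.919 and 0.710 (log2 difference -3.18, SE 0.45, limma adjusted p = 0.0049).

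In 6FAE, C6AE and AE against Control limma called 0 members, where it called 0, 0.0055% and 0.0137% of all regions higher. With fold enrichment in place of coverage it called 1, 1 and 2 members higher. At an unadjusted p under 0.05, 222 members were higher and 147 lower in 6FAE (5.42% and 1.81% of all regions), 168 and 447 in C6AE (4.15% and 4.12%), and 609 and 31 in AE (9.41% and 1%). The same counts were 657 and 21 in CFAE (10.9% and 1.14%) and 150 and 314 in Basal (4.36% and 3.02%). Of members, the higher shares were 2.32%, 1.75%, 6.36%, 6.86% and 1.57% in 6FAE, C6AE, AE, CFAE and Basal. The lower shares of members were 1.53%, 4.67%, 0.324%, 0.219% and 3.28% in the same order. C6AE and Basal had more members lower than higher on this scale of single libraries.

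Single members differed by more than the class median. The largest differences below are those among members in which both libraries of the treatment lay beyond both Control libraries. A region of 560 bp, chr5:5688826-5689385, had 0.947 RPKM in Control, 19.0 in Basal, 22.8 in AE, 7.36 in C6AE, 12.2 in 6FAE, 18.0 in CFAE and 8.21 in C6FAE, and was the largest such increase of AE and of 6FAE. No peak was listed there in the Control or the C6FAE libraries. At chr2:132210379-132211096, the largest such increase of C6AE, Control had 5.83 RPKM and all other treatments 21.2 to 27.7. Coverage there was 0 and 0.468 in the Control libraries and 0.419 in Basal library 1, so Control library 2 lay above a Basal library. At chr2:144419449-144420655, the largest such decrease of C6AE, the level was 3.29 RPKM in C6AE, 25.5 in Control and 12.2 to 21.4 elsewhere. At chr10:127050007-127051244, the largest such increase of Basal, Control had 3.22 RPKM and Basal 20.7.

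The 3 members with the highest mean ATAC-seq RPKM differed by less than 2-fold in each treatment. The region chr1:197067686-197068828 had 448 RPKM in Control and 336 to 542 RPKM in the other treatments, with one of the strongest peaks in 14 of 14 libraries. Next came chr17:3083972-3084517 with 136 RPKM in Control and 115 to 166 elsewhere. A peak was listed there in only 8 of 14 libraries and in neither Control library, so its RPKM and its peak lists stand apart. The next, chr8:72519090-72521155, had 61.7 RPKM in Control and 50.0 to 82.6 elsewhere, with a strongest peak in 14 of 14 libraries. Its listed-peak coverage in the Control libraries was 1.13 and 1.13, against 1.66 and 1.17 at the region on chromosome 1. The RPKM of the region on chromosome 1 was thus not matched by its peaks, and the cause was not tested.

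The longest members lay between the class median and the upper quartile in Control (17.2 and 21.7 RPKM). The longest, chr19:5790827-5853446, spans 62620 bp, of which H3K4me3 rows cover 35.7%, and had 20.7 RPKM in Control, 23.3 in Basal, 23.8 in AE, 18.7 in C6AE, 22.2 in 6FAE, 30.5 in CFAE and 31.9 in C6FAE. Its CFAE and C6FAE levels were above the members' upper quartiles of 28.4 and 28.5 RPKM. The next, chr7:148639724-148668556 and chr15:76013740-76042242, had 18.2 and 19.6 RPKM in Control and 20.5 and 25.5 in C6FAE. All 3 held a strongest peak in 14 of 14 libraries. Their ranges over treatments were 0.74, 0.43 and 0.50 on the log2 scale, against a median of 0.73 in members of 4000 bp and over.

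Accessibility itself differed little between length classes. Median ATAC-seq RPKM in Control was 14.97 under 1000 bp, 16.8 from 1000 to below 2000 bp, 17.5 from 2000 to below 4000 bp and 17.1 at 4000 bp and over. In C6FAE the medians were 22.1, 22.7, 23.8 and 23.4 RPKM. Across the 9581 members, Spearman's rho was 0.08 between length and mean ATAC-seq RPKM, 0.22 between length and mean H3K4me3 RPKM and -0.45 between length and the range over treatments. Members share their libraries, so these values describe the regions and carry no p.

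H3K4me3 at the members differed between libraries as a whole column. The value of a member was the mean RPKM of the H3K4me3 rows it overlapped, weighted by overlap. Medians were 18.9 RPKM in Basal, 19.8 in AE, 24.4 in C6AE, 12.0 in 6FAE, 16.5 in CFAE and 12.0 in C6FAE, with 1 library each and no replicate. The library titled as control had 24.2 RPKM. C6AE rests on a shallow library, with 745089 tags against 3296306 to 7103488 in the others of known treatment.

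Basal was taken as the reference, since the library titled as control carries another label. The median log2(RPKM+1) difference of members from Basal was 0.07 in AE, 0.34 in C6AE, -0.63 in 6FAE, -0.19 in CFAE and -0.63 in C6FAE. In C6FAE, 1.74% of members were above Basal and 1238 (12.9%) were at least 2-fold lower, against 13.3% of all 12566 H3K4me3 rows, and 2 were 2-fold higher (0.485% of all rows). In 6FAE 999 members were 2-fold lower (10.4%, against 12.0% of all rows) and in CFAE 127 (1.33%, against 1.76%). In C6AE 378 members were 2-fold higher (3.95%, against 13.0% of all rows), and in AE 4 were higher and 6 lower (0.318% and 0.0716% of all rows). The members' shares in C6FAE, 6FAE and CFAE were near those of all rows. After centring each column on its median over all rows, the median difference of members was -0.035 in C6FAE and -0.016 in CFAE, and -0.12 in C6AE, where the sign turned. Whether the mark changed at these regions cannot be told apart from the scale of single libraries.

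**Figure D5:**
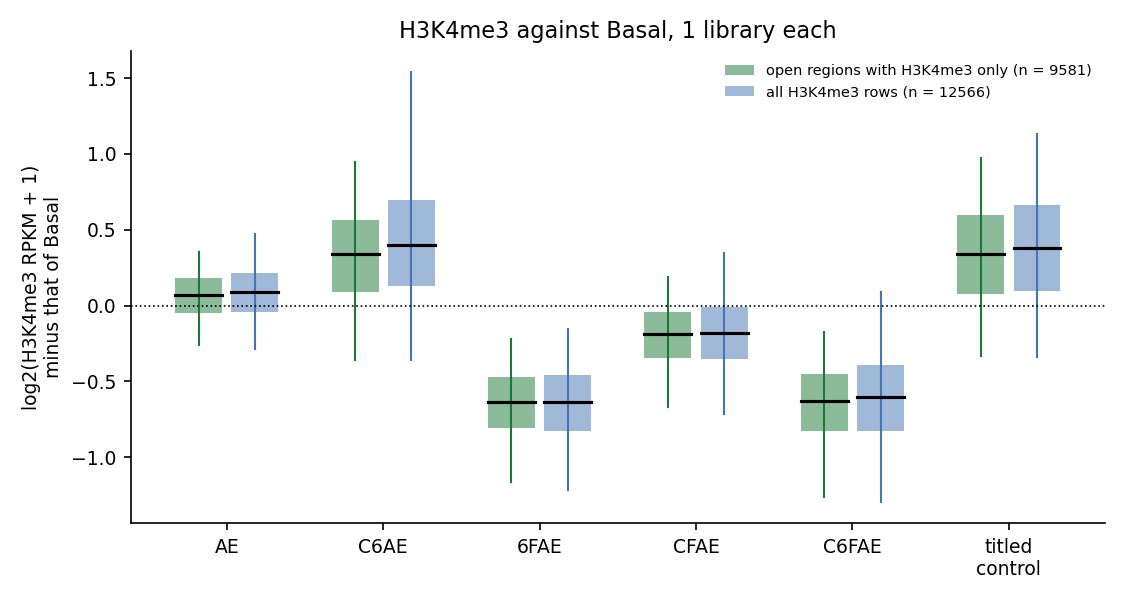
Difference of log2(H3K4me3 RPKM + 1) between each H3K4me3 library and the Basal library, for the open regions with H3K4me3 only and for all 12566 rows of the H3K4me3 table; black lines are medians, boxes quartiles and thin lines the 5th to 95th percentile over regions. The medians of 6FAE and C6FAE are -0.63 in the regions with H3K4me3 only, close to the -0.64 and -0.61 of all rows, while in C6AE all rows reach further up than the regions with H3K4me3 only.

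The level of H3K4me3 was slightly higher in longer members. In Basal the median was 16.9 RPKM under 1000 bp, 17.7 and 19.0 in the middle classes and 19.7 at 4000 bp and over. In C6FAE it was 10.03, 11.01, 12.2 and 12.5 RPKM. The difference from Basal in C6FAE was -0.69, -0.65, -0.61 and -0.64 in the 4 classes, and members at least 2-fold lower were 22.3%, 18.2%, 10.1% and 12.5%.

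Few members departed from that column-wide difference. The largest increase in C6FAE was at chr4:82697615-82699224, with 3.21 RPKM in Basal, 2.43 in AE, 18.4 in C6AE, 6.29 in 6FAE, 10.1 in CFAE and 17.6 in C6FAE. Its ATAC-seq level was 6.57 RPKM in Control and 23.4 in C6FAE, the highest of the 7 columns. Then came chr9:71741866-71744557, with 7.30 RPKM in Basal, 16.5 in CFAE and 16.1 in C6FAE, but 2.50 in 6FAE. ATAC-seq at that region was 10.3 RPKM in Control, 19.998 in CFAE and 25.4 in C6FAE. The next was chr1:137405641-137406493, with 7.505 RPKM of H3K4me3 in Basal and 15.3 in C6FAE. All 3 had higher ATAC-seq RPKM in C6FAE than in Control, by 1.69, 1.22 and 1.22 on the log2 scale, as had 87.7% of all members. At the region on chromosome 1 the libraries overlapped, with coverage of 0 and 0.485 in Control and 0.168 and 0.531 in C6FAE. Its ATAC-seq level was highest in C6AE, at 28.7 RPKM, against 16.3 in C6FAE.

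The member with the largest decrease of H3K4me3 was on chromosome 9. At chr9:108956423-108965195 H3K4me3 was 13.9 RPKM in Basal and 0.770 in C6FAE, while ATAC-seq ran from 14.4 to 19.6 RPKM over the 7 treatments. H3K4me3 rows cover 7.22% of that region. At chr6:47892843-47893429 it was 8.18 in Basal and 0.276 RPKM in C6FAE, and at chr6:136886749-136890707 15.7 and 1.34 RPKM. ATAC-seq ran from 12.2 to 26.7 RPKM at the former and from 7.91 to 16.2 RPKM at the latter, ranges of 1.07 and 0.95 on the log2 scale against 0.42 at the region on chromosome 9. Across members, Spearman's rho between the C6FAE against Basal differences of the 2 assays was 0.22.

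The highest H3K4me3 value stood on 1 row of the table that 2 members share, chr8:74192179-74196202 and chr8:74200007-74200609. It had 498 RPKM in Basal, 627 in AE, 1074 in C6AE, 157 in 6FAE, 364 in CFAE and 200.3 in C6FAE. ATAC-seq at the first was 13.6 to 23.4 RPKM and at the second 13.1 to 23.6 RPKM, which is near the median of the class. Next highest was chr1:197067686-197068828, the member with the highest mean ATAC-seq RPKM, with 88.7 RPKM of H3K4me3 in Basal and 62.0 in C6FAE.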

How the data were processed

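ATAC-seq (14 libraries) and H3K4me3 and H3K27me3 ChIP-seq of MEFs on day 4 were analysed as deposited. Per the submitters' processing notes, reads were handled with Bowtie2, MACS2 and deepTools 3.1.0 on the mouse build mm9. The authors deposited tables of RPKM per open region or ChIP-seq row, with 1 merged column per treatment for ATAC-seq. Their peak lists, per the file headers, came from MACS with a p-value limit of 0.05, run on each library alone. A position counted 1 tag at most, and MACS lengthened each tag to 250 bp. Each deposited list gives a pileup signal, a fold enrichment (ratio), a -log10 p-value and a -log10 q-value; the headers say that q was not calculated, so counts at q rest on the listed column.

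Members and lists were chosen with earlier results of these data known. RPKM was compared as log2(RPKM+1), with 2-fold as the limit and no test. The listed-peak pileup was averaged over each region, scaled to the library's tags, and log2 of this coverage plus 0.1 was fitted with limma 3.58.1 (R 4.3.3) over all regions with coverage in at least 2 libraries, with Benjamini-Hochberg adjustment. Shares of regions with one of the 20000 strongest peaks were compared by exact permutation tests over libraries (Python 3.11.15, scipy 1.17.1). Regions were named by fixed rules: the 5 largest increases and decreases of ATAC-seq RPKM in C6FAE and the single largest of each other treatment, on the side shared by both libraries; the 3 most open, longest, steadiest and highest in H3K4me3; and the 3 largest H3K4me3 differences each way. Alternatives were other pseudocounts, scalings, filters, fold limits, member definitions, a replicate block and leaving out each library. Replicate numbers were not used to pair the libraries in the reported fit. Scripts were tested on simulated data. The 3 ChIP-seq samples titled as control but labelled C6FAE entered no test, and values of the H3K4me3 one are given beside Basal as a description. ATAC-seq libraries held 3346418 to 8764791 tags and H3K4me3 libraries 745089 to 7103488; intervals for counting error do not apply to merged RPKM, whose depth per region is unknown.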

Additional observations from a re-analysis of the deposited data

Results flagged for a closer look

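The H3K4me3 library titled as control, whose treatment label is C6FAE, belongs to no comparison. In it, 414 members were at least 2-fold above Basal (4.32%, against 8.18% of all H3K4me3 rows). Its highest value at a member was 5214 RPKM (chr8:74192179-74196202), where Basal had 498 RPKM. Its condition is unknown.

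At chr7:34916012-34916574 the difference between C6FAE and each other cocktail was tested directly. The log2 coverage difference was -2.58 against 6FAE, -2.79 against CFAE, -3.01 against C6AE and -2.88 against AE, with limma adjusted p of 0.0048, 0.0012, 3.2e-04 and 6.9e-04. With a pseudocount of 0.5 the first pair of calls was lost (limma adjusted p of 0.26 against 6FAE and 0.068 against CFAE). Both C6FAE libraries were below both libraries of each of these treatments. The region was singled out because limma called it.

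In the C6AE H3K27me3 library, 34 members held a peak at a listed -log10 q of 1.3 or more, although no H3K27me3 row of the merged table overlapped them. Unmarked regions held such a peak in 0.300% and members in 0.355%.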

How the results depend on the processing

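Over 850 values computed under an alternative, 660 kept their direction and side of the threshold, or moved by less than their limit. The share of members with a strongest peak exceeded that of the other classes in 22 of 22 settings, the reported one among them (exact sign-flip p 0.00012 to 0.00024). Between treatments its p ran from 0.095, without the 6FAE pair, to 0.49, without the CFAE pair. The causes of the differences below were not tested unless the alternative itself is the cause. Depth and merged columns limit the comparisons.

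Members are given as higher and lower counts against Control. With a pseudocount of 10, ATAC-seq gave 20 and 2 in Basal, 52 and 2 in AE, 11 and 21 in C6AE, 16 and 5 in 6FAE, 104 and 1 in CFAE, and 109 and 2 in C6FAE. With a limit of 1.5-fold it gave 933 and 394, 2317 and 156, 580 and 1104, 992 and 409, 3236 and 77, and 3203 and 96 in the same order. Centred on the median of all regions it gave 71 and 236 in Basal (median -0.22), 93 and 203 in AE (median -0.14), 73 and 221 in 6FAE (median -0.21), 89 and 204 in CFAE (median -0.20), and 109 and 190 in C6FAE (median -0.14). These 5 medians turned sign. Quantile normalization gave 66 and 114 in Basal (median -0.082), 70 and 76 in AE (median -0.054), 77 higher in C6AE, 83 and 130 in 6FAE (median -0.023), 89 and 95 in CFAE (median -0.034), and 87 and 88 in C6FAE (median -0.014), with the same 5 signs turned. Centred on the 10% most open regions it gave 151 and 111 in AE (median 0.0018), 200 and 152 in C6AE (median 0.034, sign turned), 187 and 70 in CFAE (median 0.034) and 193 and 88 in C6FAE (median 0.035), and the C6FAE against 6FAE median turned to -0.020. Without regions under the lower quartile of RPKM, 12 members were lower in CFAE.

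For H3K4me3 against Basal, a pseudocount of 10 gave 0 and 0 in AE, 74 and 6 in C6AE, 0 and 32 in 6FAE (median -0.40), 0 and 8 in CFAE, and 1 and 73 in C6FAE (median -0.40), and one of 0.1 gave 5 higher in C6FAE. Centred on all rows it gave 2 higher in AE, 62 and 243 in C6AE (median -0.12, sign turned), 14 and 74 in 6FAE (median -0.0031), 26 and 77 in CFAE (median -0.016), and 35 and 169 in C6FAE (median -0.035). Quantile normalization gave 7 and 13 in AE, 72 and 219 in C6AE (median -0.14, sign turned), 20 and 60 in 6FAE (median -0.0030), 36 higher in CFAE (median -0.016), and 39 and 159 in C6FAE (median -0.044). On H3K4me3 rows above the lower quartile, 2 were lower in AE, 5 lower in C6AE, 0 and 653 in 6FAE, 5 and 28 in CFAE, and 0 and 715 in C6FAE. There the shortest class had a median of 11.3 RPKM in C6FAE, 19 members were lower in AE by ATAC-seq, and limma called 1 member higher in C6FAE. With at least 50% of the length covered, 2 were lower in AE. With no H3K27me3 row within 1000 bp, limma called 1 member higher in C6FAE.

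In limma, a pseudocount of 0.5 left 0 members higher in C6FAE, 2 regions called in all, and 0 lower against 6FAE and 0 against CFAE. Quantile normalization left 0 members higher in C6FAE, 5 regions in all and 0 members higher in CFAE. Coverage in at least 7 libraries left 0 higher in CFAE. Fold enrichment gave 7 members higher in C6FAE, 60 regions in all, 3 members higher in CFAE, 1 in 6FAE, 1 in C6AE, 2 in AE and 2 in Basal, where 2 were lower. Each Control and C6FAE library was left out in turn, the lone library being assumed to vary like the other groups. Members higher in C6FAE ran from 0 (without either C6FAE library) to 30 (without Control library 1; 15 without library 2), and all regions called from 7 (without either C6FAE library) to 109 (without Control library 1; 87 without library 2). Members higher ran from 0 to 23 in CFAE, 0 to 6 in 6FAE, 0 to 8 in C6AE (0 to 1 lower), 0 to 21 in AE and 0 to 6 in Basal, with the upper ends reached without a Control library. Members lower in C6FAE ran from 1 to 2 against 6FAE, CFAE, C6AE and AE. The region on chromosome 7 kept its call against Control in each fit (limma adjusted p 7.2e-05 to 0.018), and the region on chromosome 9 in Basal likewise (0.0048 to 0.043).

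With the replicate number as a block, limma called 0 members higher in C6FAE, 10 regions in all and 0 members higher in CFAE. The 21 correlations between same-numbered libraries of different treatments ran from -0.037 to 0.023, with 0 over 0.1. They cannot exclude a shared culture or day, on which the labels say nothing.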
